A study of Mus musculus with 16 samples.

Results

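The collagen and laminin chain genes of the mouse retina are described here across 6 groups of mice that differed in Nxnl1 genotype and in light dose. Members were the genes whose symbol is that of 1 numbered collagen alpha chain (Col, a type, a, a chain) or 1 laminin alpha, beta or gamma chain (Lama, Lamb or Lamc and a number). The array carried 52 such genes, 42 for collagens and 10 for laminins, among 18193 genes with a probe set of a single symbol. Of the 52, 28 gave a measurable signal, defined as log2 intensity above 4 on at least 2 of 16 arrays: 24 collagen and 4 laminin genes. In the whole series 10916 genes passed that filter.

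Collagens are built from 3 alpha chains wound into a triple helix, and laminins from 1 alpha, 1 beta and 1 gamma chain. Type 4 collagen and laminins form the sheets of basement membranes, which in the eye include the inner limiting membrane between retina and vitreous, Bruch's membrane beneath the pigment epithelium and the sleeves of retinal vessels. Fibrillar collagens form fibres, fibril-associated collagens coat them, and a type 2, type 11 and type 9 fibril is the scaffold of the vitreous. Transmembrane collagens sit in the plasma membrane of neurons and other cells.

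All mice were BALB/c, an albino strain, of 11 to 16 weeks and of both sexes in equal number, reared at 50 lux by day. They were wild type (Nxnl1+/+) or homozygous for loss of Nxnl1 (Nxnl1-/-), the gene of the rod-derived cone viability factor, and the study asked how the loss alters susceptibility to light damage. After 16 h of darkness each mouse spent 1 h under white fluorescent light of 50, 2500 or 5000 lux and then 24 h in the dark, so that the 50 lux mice went through the same schedule at rearing light. Wild-type groups held 2, 3 and 3 arrays at 50, 2500 and 5000 lux, and Nxnl1-/- groups held 3, 3 and 2. The arrays are labelled biological replicates, but the labels do not say whether each held 1 animal or a pool, so p-values measure the spread between these samples. The neural retina was dissected away from the pigment epithelium before RNA was taken.

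The targeted gene followed the labels: Nxnl1 lay between log2 5.64 and 7.61 on the wild-type arrays and between 2.21 and 2.92 on the Nxnl1-/- arrays, where 2.21 is the lowest value the files hold. All 8 rod markers on the array were measured on every array. Their summed intensity lay between 116187 and 126367 on the 5 arrays of 50 lux and between 77810 and 101521 on the others. Loss of cells of a type and less RNA per cell cannot be told apart in whole retina, here and in every result that follows. Rpe65, a defining pigment epithelium gene, was measured on every array, between log2 6.06 and 10.12. An array that stood apart was wild-type 5000 lux replicate 2, with a summed lens marker intensity of 89007 against at most 215 on every other wild-type array. Between 1966 and 8116 was found on the 3 Nxnl1-/- 50 lux arrays, 7068 on Nxnl1-/- 2500 lux replicate 2 and 5091 on Nxnl1-/- 5000 lux replicate 2. The pair with the highest sums, wild-type 5000 lux replicate 2 and Nxnl1-/- 50 lux replicate 1, was left out together, the other 4 only 1 at a time, and calls that were lost are given beside their chains.

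Of the 28 measured chains, 12 differed from 50 lux in at least 1 of the 4 light responses (limma, adjusted p under 0.05 over all probe sets). For 1 of them, Lama1, the filter was met only through the group in which it was high, so its call is not a test of that difference and 11 chains remain. In wild type, 4 chains were higher and 7 lower at 2500 lux, where 8.93% of all genes tested were higher and 5.13% lower. At 5000 lux 4 wild-type chains were higher and 6 lower, against 7.56% and 5.27% of all genes. In Nxnl1-/- retina 4 were higher and 6, Lama1 among them, lower at 2500 lux, against 8.87% and 13.5%, and 4 were higher and 3 lower at 5000 lux, against 4.6% and 7.81%. These counts move with single arrays: without wild-type 50 lux replicate 1 or 2 there were 6 or 7 wild-type chains called at 2500 lux and 6 at 5000 lux, and without Nxnl1-/- 5000 lux replicate 2 there were 4 in Nxnl1-/- retina at that dose. Where 1 of 2 arrays of a group was left out, here and further on, the lone array was assumed to vary like the other groups. The responses to 2500 and 5000 lux in a genotype share the same 50 lux arrays. Changes in both directions left the median log2 change of the 28 chains at 0.02, -0.01, 0.01 and -0.04 in that order of comparisons. Over all genes tested those medians were 0.04, 0.00, -0.08 and -0.09. The chains that moved belonged to the fibrillar, fibril-associated, transmembrane and type 4 classes, while chains of types 6, 7, 8 and 18 did not pass the test.

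**Figure D1:**
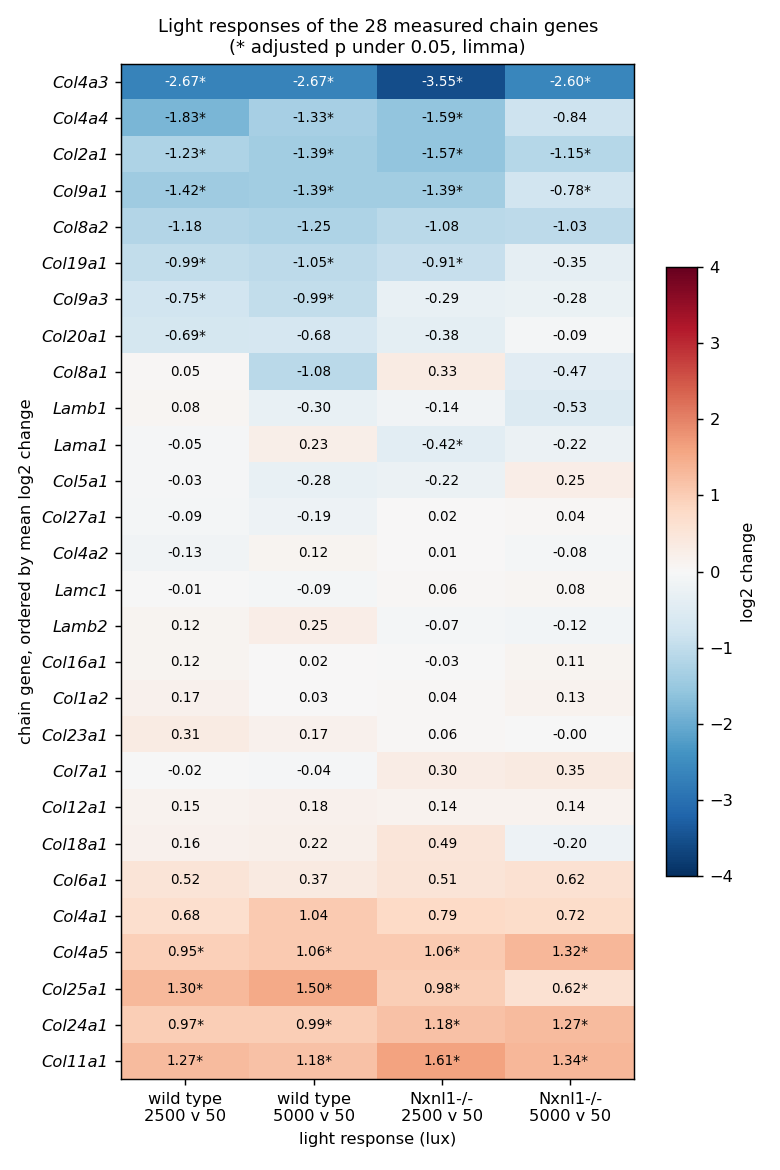
Log2 change of each of the 28 measured chain genes (rows) in the 4 light responses against 50 lux (columns), with an asterisk where the limma adjusted p was under 0.05. Col4a3 has the deepest blue in every column, down to -3.55 in Nxnl1-/- retina at 2500 lux, and Col11a1, Col24a1, Col25a1 and Col4a5 are red in every column.

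Among the type 4 chains, Col4a3 fell the most of all 28 members, and its partner Col4a4 fell with it, while Col4a5 rose. These 3 chains assemble into 1 network, the alpha 3, alpha 4, alpha 5 form of basement membrane collagen known from the glomerulus and mutated in Alport syndrome. Col4a3 measured log2 7.45 and 7.11 in wild type at 50 lux, then 5.13, 4.62 and 4.10 at 2500 lux and 4.34, 5.25 and 4.24 at 5000 lux. Nxnl1-/- retina gave 7.56, 7.30 and 7.91 at 50 lux, 3.94, 4.29 and 3.89 at 2500 lux and 5.13 and 4.85 at 5000 lux. No bright-light array of either genotype came within reach of the 50 lux arrays, and the lowest group, Nxnl1-/- at 2500 lux, straddled the limit of log2 4. In wild type Col4a3 was 6.34-fold lower at 2500 lux (log2 -2.67, SE 0.32, limma adjusted p = 0.00013) and 6.37-fold lower at 5000 lux (log2 -2.67, SE 0.32, adjusted p = 0.000114). In Nxnl1-/- retina it was 11.7-fold lower at 2500 lux (log2 -3.55, SE 0.29, limma adjusted p = 2.8e-06) and 6.06-fold lower at 5000 lux (log2 -2.60, SE 0.32, adjusted p = 0.000306). A second Col4a3 probe set fell too. Counted from log2 4, which its arrays did not pass there, it was at least 6.43-fold lower in wild type at 5000 lux and at least 7.54-fold lower in Nxnl1-/- retina at both doses. In wild type at 2500 lux its mean went from log2 6.68 to 3.03, with arrays on both sides of the limit.

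Col4a4 lies head to head with Col4a3 on chromosome 1 and is transcribed the other way. Its wild-type values were log2 7.66 and 7.42 at 50 lux, 5.91, 5.74 and 5.49 at 2500 lux and 5.54, 6.84 and 6.23 at 5000 lux. The Nxnl1-/- values were 6.93, 6.61 and 7.49 at 50 lux, 5.16, 5.48 and 5.62 at 2500 lux and 5.87 and 6.48 at 5000 lux. Each bright-light array lay under every 50 lux array of its genotype, most narrowly in Nxnl1-/- retina at 5000 lux. Col4a4 fell at 2500 lux, 3.55-fold in wild type (log2 -1.83, SE 0.33, limma adjusted p = 0.00314) and 3.02-fold in Nxnl1-/- retina (log2 -1.59, SE 0.30, adjusted p = 0.00223). At 5000 lux it fell 2.52-fold in wild type (log2 -1.33, SE 0.33, limma adjusted p = 0.0212), and the Nxnl1-/- difference of -0.84 (SE 0.33) did not pass (adjusted p = 0.115). The wild-type call at 5000 lux was lost without 50 lux replicate 1 (adjusted p = 0.174), 50 lux replicate 2 (0.0801), 5000 lux replicate 1 (0.0608) or 5000 lux replicate 3 (0.0563). Without the lens-rich replicate 2 and Nxnl1-/- 50 lux replicate 1 it was larger, at log2 -1.65 (adjusted p = 0.0074).

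Col4a5, an X-linked chain, went the other way. It measured log2 6.96 and 6.87 in wild type at 50 lux, 7.73, 8.11 and 7.75 at 2500 lux and 7.71, 8.29 and 7.92 at 5000 lux. The Nxnl1-/- values were 6.63, 6.64 and 7.26 at 50 lux, 7.99, 7.94 and 7.78 at 2500 lux and 8.04 and 8.30 at 5000 lux. Every bright-light array was above every 50 lux array. The rise was 1.93-fold and 2.08-fold at 2500 and 5000 lux in wild type (log2 0.95 and 1.06, SE 0.21 each, limma adjusted p = 0.00978 and 0.0052). It was 2.08-fold and 2.5-fold in Nxnl1-/- retina (log2 1.06, SE 0.19, and 1.32, SE 0.21, limma adjusted p = 0.00142 and 0.00193). With wild-type 50 lux replicate 2 left out the wild-type calls were lost (limma adjusted p = 0.0824 at 2500 lux and 0.0537 at 5000 lux), and without replicate 1 that at 2500 lux was lost (0.063). A second, dimmer Col4a5 probe set rose in Nxnl1-/- retina (log2 0.53 and 0.76) and not in wild type (0.29 and 0.49, limma adjusted p = 0.369 and 0.118).

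The other type 4 chains, Col4a1 and Col4a2, form the common network of nearly all basement membranes, including those of vessels. Neither passed the test. Col4a1 was higher on average in each light response, by log2 0.68 and 1.04 in wild type and 0.79 and 0.72 in Nxnl1-/- retina, but its groups overlapped in all but wild type at 5000 lux (limma adjusted p between 0.158 and 0.359). With array weights it was called in wild type at 5000 lux (limma adjusted p = 0.0153) and in Nxnl1-/- retina at 2500 lux (0.0144). Its highest arrays, at log2 10.31 and 10.33, were the lens-rich wild-type 5000 lux replicate 2 and Nxnl1-/- 5000 lux replicate 2. Without the pair of arrays richest in lens markers the wild-type difference at 5000 lux was 0.78. A second, dimmer Col4a1 probe set was higher by log2 0.43 and 0.86 in wild type and 0.67 and 0.50 in Nxnl1-/- retina. Its groups overlapped in no light response, and none passed (limma adjusted p between 0.107 and 0.449). Col4a2 differed by between -0.13 and 0.12, and its highest array, at log2 8.15, was the same lens-rich one. Col4a6 never rose above log2 3.64.

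The sequence before the start of Col4a4 and of Col4a5 is shown because these chains of 1 network moved in opposite directions. The table of RefSeq promoters used here (mouse build GRCm38.p6) holds the 250 bases before the start of 8 of the 12 chains called, and Col2a1, Col4a3, Col9a3 and Lama1 are not in it. Each stretch was searched on both strands for the CCAAT box (read as CCAAT), the GC box (read as GGGCGG), the TATA box (read as TATAAA), an AP-1 site (read as TGANTCA) and a STAT site (read as TTCNNNGAA), with matches in capitals as they read on the strand printed. None of the 5 motifs overlaps another in these windows. The Col4a4 window is chr1:82586850-82587099 on the minus strand and that of Col4a5 is chrX:141475169-141475418 on the plus strand.
Col4a4: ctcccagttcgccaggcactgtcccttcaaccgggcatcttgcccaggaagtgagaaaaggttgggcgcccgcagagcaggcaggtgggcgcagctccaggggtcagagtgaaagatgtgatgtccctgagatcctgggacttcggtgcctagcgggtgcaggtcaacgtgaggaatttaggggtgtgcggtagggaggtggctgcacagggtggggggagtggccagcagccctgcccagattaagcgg
Col4a5: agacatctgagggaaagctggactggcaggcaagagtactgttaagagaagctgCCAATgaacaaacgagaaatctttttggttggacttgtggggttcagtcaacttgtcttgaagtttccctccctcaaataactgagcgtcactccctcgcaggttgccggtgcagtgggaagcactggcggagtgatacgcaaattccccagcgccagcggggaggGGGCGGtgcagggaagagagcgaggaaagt
The Col4a4 window held none of the 5 motifs. The Col4a5 window held a CCAAT box 196 bases and a GC box 30 bases before the start. Among 32851 RefSeq promoters of that length, 33.8% held the CCAAT box, 32.7% the GC box, 12.4% the TATA box, 6.7% the AP-1 site and 7.0% the STAT site. The 22 measured chains with an entry had 24 such windows, of which 11 held the CCAAT box and 14 the GC box.

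Of the 6 fibrillar collagens measured, Col11a1 and Col24a1 rose and Col2a1 fell in all 4 light responses, and Col1a2, Col5a1 and Col27a1 did not pass the test in any. Col2a1 encodes the main fibril chain of cartilage and vitreous. Its wild-type values were log2 7.33 and 7.17 at 50 lux, 6.0, 6.0 and 6.08 at 2500 lux and 5.95, 5.85 and 5.77 at 5000 lux. The Nxnl1-/- arrays measured 7.58, 7.26 and 7.85 at 50 lux, 5.94, 6.08 and 5.95 at 2500 lux and 6.10 and 6.72 at 5000 lux. The bright-light arrays formed a tight low band apart from Nxnl1-/- 5000 lux replicate 2 at 6.72, itself under all 50 lux arrays. Col2a1 was 2.34-fold and 2.63-fold lower in wild type at 2500 and 5000 lux (log2 -1.23 and -1.39, SE 0.18, limma adjusted p = 0.000623 and 0.000208). In Nxnl1-/- retina it was 2.98-fold and 2.23-fold lower (log2 -1.57, SE 0.16, and -1.15, SE 0.18, limma adjusted p = 1.9e-05 and 0.00178).

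Col11a1 encodes a minor chain that is buried in type 2 fibrils and limits their width. It measured log2 4.64 and 4.67 in wild type at 50 lux, 5.63, 6.20 and 5.94 at 2500 lux and 5.68, 5.57 and 6.26 at 5000 lux. The Nxnl1-/- arrays gave 4.64, 4.75 and 4.68 at 50 lux, 6.25, 6.32 and 6.32 at 2500 lux and 5.83 and 6.23 at 5000 lux. The 5 arrays of 50 lux lay close together and all others lay well above them. The rise was 2.41-fold and 2.27-fold in wild type (log2 1.27 and 1.18, SE 0.20, limma adjusted p = 0.00103 and 0.00178) and 3.04-fold and 2.53-fold in Nxnl1-/- retina (log2 1.61, SE 0.18, and 1.34, SE 0.20, adjusted p = 3.8e-05 and 0.00129). A second Col11a1 probe set lay at the limit of measurement. It was at least 1.09-fold higher in wild type at 2500 lux, counted from log2 4 (limma adjusted p = 0.011), had both means below log2 4 at 5000 lux, and did not pass in Nxnl1-/- retina (limma adjusted p = 0.0881 and 0.0979).

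Col24a1 encodes a less common fibrillar chain. Its values were log2 5.18 and 5.19 in wild type at 50 lux, 6.05, 6.40 and 6.04 at 2500 lux and 6.42, 5.84 and 6.28 at 5000 lux. They were 4.37, 5.22 and 5.39 in Nxnl1-/- retina at 50 lux, 6.38, 6.09 and 6.04 at 2500 lux and 6.25 and 6.27 at 5000 lux. All bright-light arrays were above all 50 lux arrays, of which Nxnl1-/- replicate 1 was the lowest. Col24a1 was 1.97-fold and 1.99-fold higher in wild type (log2 0.97 and 0.99, SE 0.26, limma adjusted p = 0.0255 and 0.0247) and 2.26-fold and 2.41-fold higher in Nxnl1-/- retina (log2 1.18, SE 0.23, and 1.27, SE 0.26, adjusted p = 0.00285 and 0.00848). The wild-type calls were lost without 50 lux replicate 1 (limma adjusted p = 0.14 and 0.146), 50 lux replicate 2 (0.126 and 0.122), 2500 lux replicate 2 (0.0818 at that dose) or 5000 lux replicates 1 or 3 (0.0781 and 0.0803). Without Nxnl1-/- 5000 lux replicate 2 the call in its group was lost as well (limma adjusted p = 0.0743).

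Col1a2, Col5a1 and Col27a1 stayed within log2 changes of -0.28 and 0.25 in the 4 responses. Col1a2, a chain of the type 1 collagen of skin, bone and sclera, stood at exactly log2 4.30 on 8 of the 16 arrays. Col1a1, Col3a1, Col5a2, Col5a3 and Col11a2 were not measured, and the highest value among them was log2 3.97, for Col11a2. Of 15 fibroblast markers 10 never passed log2 4, but the list includes Col1a1, Col1a2 and Col3a1, and Col1a1 and Col3a1 are among those 10.

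Of the 6 fibril-associated collagens measured, 4 fell in wild type at 2500 lux, 3 at 5000 lux, 2 in Nxnl1-/- retina at 2500 lux and 1 at 5000 lux, and none rose. Col9a1, a chain of the type 9 collagen that decorates vitreous and cartilage fibrils, was the one that fell in all 4. It measured log2 10.05 and 10.18 in wild type at 50 lux, 8.84, 8.85 and 8.38 at 2500 lux and 8.77, 8.70 and 8.71 at 5000 lux. Nxnl1-/- values were 9.74, 10.17 and 10.14 at 50 lux, 8.81, 8.65 and 8.43 at 2500 lux and 9.12 and 9.36 at 5000 lux. The groups did not overlap, and the 5000 lux Nxnl1-/- arrays lay between the 50 lux arrays and the rest. Col9a1 was 2.68-fold and 2.62-fold lower in wild type (log2 -1.42 and -1.39, SE 0.17, limma adjusted p = 0.000139 and 0.000158). In Nxnl1-/- retina it was 2.61-fold lower at 2500 lux (log2 -1.39, SE 0.16, limma adjusted p = 4.0e-05) and 1.72-fold lower at 5000 lux (log2 -0.78, SE 0.17, adjusted p = 0.0136). The last call was lost without either 5000 lux array (limma adjusted p = 0.054 without replicate 1 and 0.0521 without replicate 2), and a second Col9a1 probe set did not pass there (log2 -0.45, adjusted p = 0.275).

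Col19a1, a collagen of basement membrane zones that is also made by neurons, measured log2 8.76 and 8.73 in wild type at 50 lux, 8.07, 7.18 and 8.02 at 2500 lux and 7.33, 7.90 and 7.87 at 5000 lux. The Nxnl1-/- arrays gave 8.43, 8.38 and 8.46 at 50 lux, 7.01, 7.62 and 7.91 at 2500 lux and 7.80 and 8.35 at 5000 lux. All bright-light arrays lay lower than their 50 lux arrays, by little for Nxnl1-/- 5000 lux replicate 2. The fall was 1.98-fold and 2.07-fold in wild type (log2 -0.99 and -1.05, SE 0.30, limma adjusted p = 0.0464 and 0.0378) and 1.88-fold in Nxnl1-/- retina at 2500 lux (log2 -0.91, SE 0.26, adjusted p = 0.0275). The Nxnl1-/- difference at 5000 lux, -0.35 (SE 0.30), did not pass. These calls held in 6, 10 and 11 of the 16 fits that each left out 1 array, the weakest being wild type at 2500 lux without 50 lux replicate 1 (limma adjusted p = 0.206). Without the pair of arrays richest in lens markers all 3 were lost (limma adjusted p = 0.0656, 0.0605 and 0.0768). A second Col19a1 probe set fell in all 4 responses, by log2 -1.0, -0.97, -1.36 and -1.03 (limma adjusted p between 1.8e-05 and 0.00131).

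Col9a3, a partner chain of Col9a1, passed in wild type at both bright doses. It measured log2 6.02 and 5.44 at 50 lux, 4.65, 5.22 and 5.05 at 2500 lux and 4.58, 4.96 and 4.66 at 5000 lux in wild type. Nxnl1-/- values were 5.42, 4.96 and 5.50 at 50 lux, 5.03, 5.03 and 4.96 at 2500 lux and 5.13 and 4.90 at 5000 lux. The wild-type groups stood apart, with 50 lux replicate 1 the highest array, while the Nxnl1-/- groups overlapped. Col9a3 was 1.69-fold and 1.99-fold lower in wild type (log2 -0.75 and -0.99, SE 0.21, limma adjusted p = 0.0371 and 0.00891), and the Nxnl1-/- differences were -0.29 and -0.28. Without wild-type 50 lux replicate 1 both calls were lost (limma adjusted p = 0.38 and 0.161), and the call at 2500 lux held in 9 of 16 fits without 1 array. The genotype difference in these responses was not called (interaction at 5000 lux log2 0.71, SE 0.30, limma adjusted p = 0.594), and a second Col9a3 probe set passed in no response.

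Col20a1, a fibril-associated chain about which little is known, fell in wild type at 2500 lux, from log2 7.17 and 7.01 to 6.35, 6.47 and 6.37 (1.61-fold, log2 -0.69, SE 0.21, limma adjusted p = 0.0486). The 5000 lux values of 6.20, 6.49 and 6.55 were also under both 50 lux values, by log2 -0.68 on average (limma adjusted p = 0.0579, and called under 9 of 28 other settings). The Nxnl1-/- values were 6.47, 6.43 and 6.93 at 50 lux, 5.85, 6.47 and 6.36 at 2500 lux and 6.27 and 6.77 at 5000 lux. There the groups overlapped and the mean differences were -0.38 and -0.09. The wild-type call at 2500 lux held in 5 of 16 fits without 1 array, and without 50 lux replicate 1 its limma adjusted p was 0.266. It was also lost without the lens-rich pair (limma adjusted p = 0.0657). Col12a1 and Col16a1 differed by at most log2 0.18, with Col12a1 at exactly log2 5.06 on 6 arrays and Col16a1 at 4.12 on 7. Col9a2, Col14a1 and Col22a1 were not measured.

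**Figure D2:**
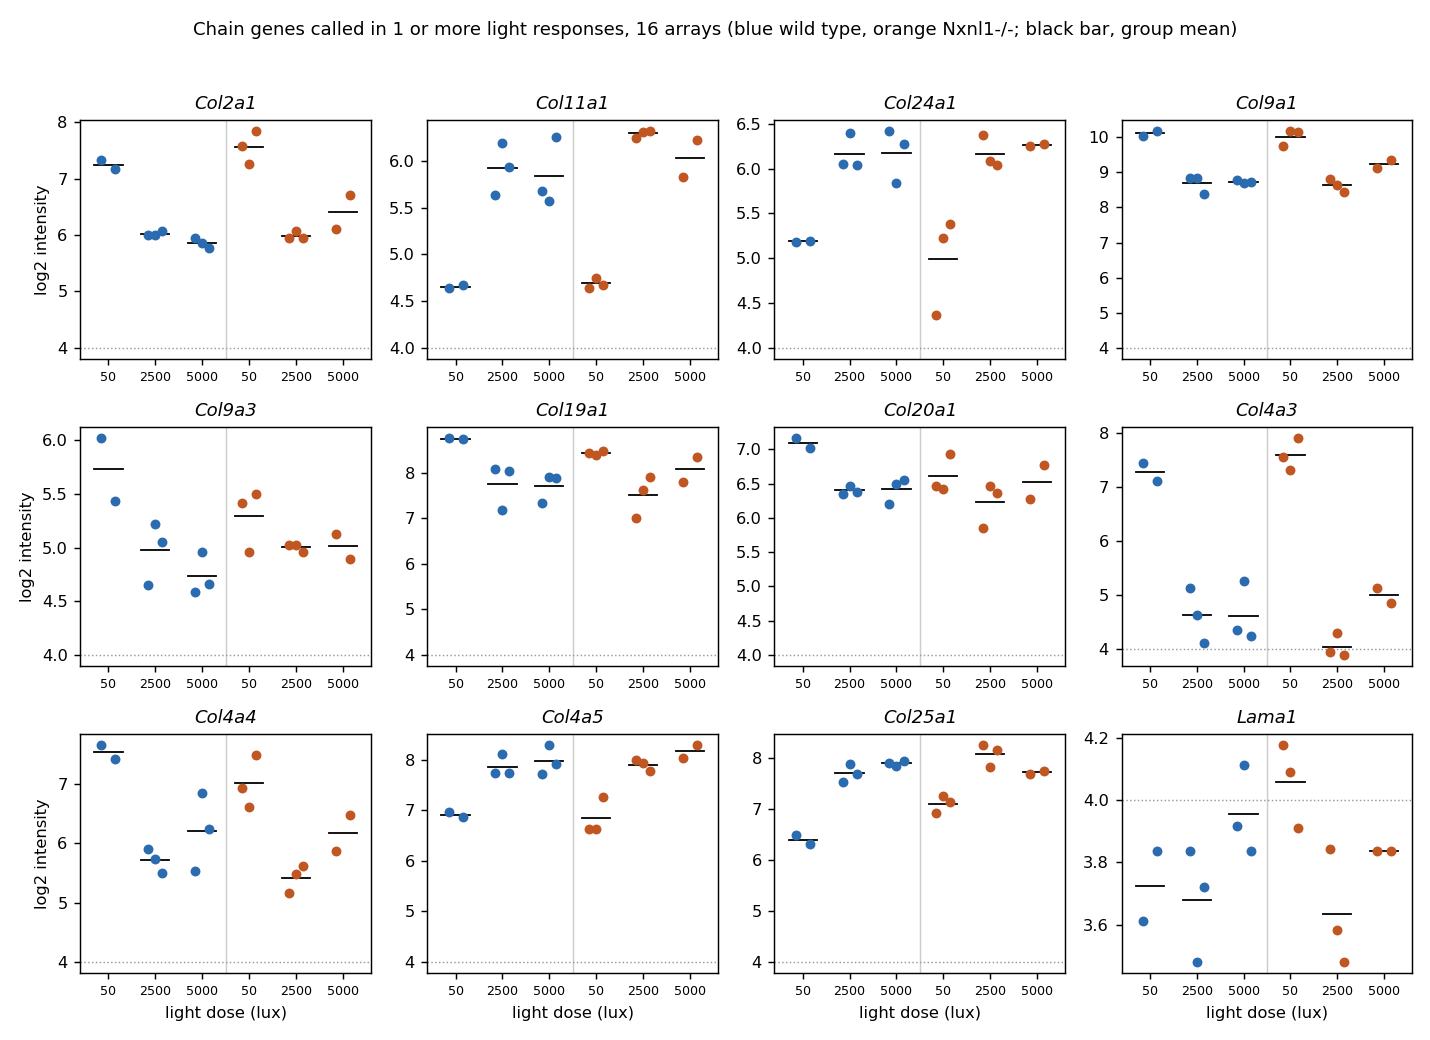
Log2 intensity on each of the 16 arrays for the 12 chain genes called in at least 1 light response, by light dose in lux, with wild type in blue, Nxnl1-/- in orange, a black bar at each group mean and a dotted line at log2 4. Axes differ between genes. Col4a3 falls from above 7 to between 3.89 and 5.25 in both genotypes, and Lama1 lies between 3.48 and 4.18 throughout.

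The windows before the starts of Col11a1 and Col25a1, which both rose, and of Col9a1, which fell, are shown next. RefSeq (GRCm38.p6) places them on the plus strand at chr3:114030290-114030539 for Col11a1, chr3:130180595-130180844 for Col25a1 and, for 2 starts of Col9a1, chr1:24177360-24177609 and chr1:24194953-24195202. Capitals again mark matches to the 5 motifs.
Col11a1: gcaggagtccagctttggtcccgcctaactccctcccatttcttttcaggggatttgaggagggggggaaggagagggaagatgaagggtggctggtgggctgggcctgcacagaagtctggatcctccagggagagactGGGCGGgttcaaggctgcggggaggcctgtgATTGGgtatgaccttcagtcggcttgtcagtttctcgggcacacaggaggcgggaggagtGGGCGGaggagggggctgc
Col25a1: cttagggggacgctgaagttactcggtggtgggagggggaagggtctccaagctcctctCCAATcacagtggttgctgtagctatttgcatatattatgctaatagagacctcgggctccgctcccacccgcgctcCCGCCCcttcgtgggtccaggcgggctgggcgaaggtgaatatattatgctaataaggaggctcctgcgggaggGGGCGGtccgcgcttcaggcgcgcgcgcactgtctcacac
Col9a1, upstream start: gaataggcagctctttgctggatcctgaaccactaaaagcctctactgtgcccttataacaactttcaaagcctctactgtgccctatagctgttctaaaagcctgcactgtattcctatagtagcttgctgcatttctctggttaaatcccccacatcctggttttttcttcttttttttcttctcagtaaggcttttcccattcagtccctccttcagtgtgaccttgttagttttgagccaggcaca
Col9a1, downstream start: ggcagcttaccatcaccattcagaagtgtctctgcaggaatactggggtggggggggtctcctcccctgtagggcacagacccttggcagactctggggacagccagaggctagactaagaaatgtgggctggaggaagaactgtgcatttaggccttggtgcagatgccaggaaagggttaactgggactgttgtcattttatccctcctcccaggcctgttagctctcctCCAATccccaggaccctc
Col11a1 and Col25a1 each held 1 CCAAT box and 2 GC boxes. In Col11a1 the CCAAT box lay 79 bases and the GC boxes 110 and 19 bases before the start, and in Col25a1 the CCAAT box lay 191 and the GC boxes 114 and 40 bases before it. The upstream Col9a1 window held none of the 5 motifs and the downstream one held a CCAAT box 18 bases before the start. The windows of Col19a1, Col20a1 and Col24a1 held none, although Col24a1 rose as Col11a1 and Col25a1 did.

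Col25a1 was the transmembrane chain that rose. It encodes a neuronal collagen whose shed ectodomain binds amyloid beta. Its wild-type values were log2 6.48 and 6.31 at 50 lux, 7.54, 7.88 and 7.69 at 2500 lux and 7.90, 7.85 and 7.94 at 5000 lux. Nxnl1-/- retina gave 6.92, 7.24 and 7.13 at 50 lux, 8.26, 7.81 and 8.16 at 2500 lux and 7.68 and 7.75 at 5000 lux. Bright-light arrays were above all 50 lux arrays, and at 50 lux all 3 Nxnl1-/- arrays were above both wild-type ones. Col25a1 was 2.47-fold and 2.83-fold higher in wild type (log2 1.30 and 1.5, SE 0.15, limma adjusted p = 8.0e-05 and 2.0e-05) and 1.97-fold and 1.53-fold higher in Nxnl1-/- retina (log2 0.98, SE 0.13, and 0.62, SE 0.15, adjusted p = 0.000191 and 0.0198). The Nxnl1-/- call at 5000 lux was lost without 50 lux replicate 1 (limma adjusted p = 0.0644) or the lens-rich pair (0.0824). It was also lost without the 2 arrays of highest pigment epithelium marker sum (limma adjusted p = 0.0797). Array weights (0.182) and a fit of the compared arrays alone (0.183) lost it too. The difference was log2 0.58 without 5000 lux replicate 2, a fit that left 1 array in that group and did not keep the call. Col23a1, the other transmembrane chain measured, differed by at most log2 0.31 and did not pass, and Col13a1 and Col17a1 were not measured.

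The laminins were few. Of 10 genes, Lama1, Lamb1, Lamb2 and Lamc1 were measured, and Lama2, Lama3, Lama4, Lama5, Lamb3 and Lamc3 were not, with Lama3 and Lamb3 at the lowest value on all 16 arrays. Lama1, the alpha chain of the inner limiting membrane, was the member nearest the limit of measurement, above log2 4 on only 3 arrays. It measured 3.61 and 3.84 in wild type at 50 lux, 3.84, 3.48 and 3.72 at 2500 lux and 3.92, 4.11 and 3.84 at 5000 lux. The Nxnl1-/- values were 4.18, 4.09 and 3.91 at 50 lux, 3.84, 3.58 and 3.48 at 2500 lux and 3.84 on both arrays at 5000 lux. The filter was met through Nxnl1-/- 50 lux replicates 1 and 2 and 1 array elsewhere. The comparison of that group with 2500 lux, where all arrays were under log2 4, had a limma adjusted p of 0.0383, but a gene let in by its high group had to differ there, and this is not taken as a fall. With values raised to log2 4 the difference was -0.09 (limma adjusted p = 0.463). The p was above the threshold without Nxnl1-/- 50 lux replicate 1 (0.117) or 2 (0.0829), 2500 lux replicate 2 (0.113) or 3 (0.152), or the lens-rich pair (0.119).

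Lamb1, Lamb2 and Lamc1, the beta and gamma chains that were measured, did not pass in any response. Lamb1 ranged from log2 5.92 to 7.12 and differed by 0.08 and -0.30 in wild type and -0.14 and -0.53 in Nxnl1-/- retina. The last of these was log2 -0.93 (limma adjusted p = 0.0105) when Nxnl1-/- 5000 lux replicate 1 was left out, which leaves the lowest array, at 5.92, alone in its group, so that the spread comes from the other groups. Lamb2 and Lamc1 differed by at most log2 0.25, with Lamb2 at exactly log2 5.07 on 6 arrays and Lamc1 at 4.82 on 5.

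The remaining measured chains did not pass the test at any dose. Col8a1 and Col8a2, the short-chain collagens that make the hexagonal lattice of Descemet's membrane, had the wider spread. Col8a2 was log2 5.65 and 4.72 in wild type at 50 lux and 6.15, 4.63 and 4.08 in Nxnl1-/- retina, against values between 3.53 and 4.27 on all bright-light arrays. Only 5 of those 11 bright-light arrays passed log2 4. The differences of the means, which the limit makes uncertain, lay between log2 -1.03 and -1.25 as fitted (limma adjusted p between 0.0782 and 0.143), and in Nxnl1-/- retina at 5000 lux, where no array passed log2 4, Col8a2 was at least 1.94-fold lower on average. The 2 highest arrays for Col8a2, wild-type and Nxnl1-/- 50 lux replicate 1, were also the 2 with the highest pigment epithelium marker sum, and without both the differences were -0.72, -0.79, -0.48 and -0.43. Without Nxnl1-/- 50 lux replicate 1 alone both wild-type responses of Col8a2 were called (limma adjusted p = 0.0117 and 0.00884), and without Nxnl1-/- 50 lux replicate 3 both Nxnl1-/- responses were (0.018 and 0.0421). Array weights called both wild-type responses (limma adjusted p = 0.0446 and 0.00712) and the Nxnl1-/- response at 2500 lux (0.0296). The last was also called with replicate number as a block (limma adjusted p = 0.0373).

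Col8a1 stood lower in wild type at 5000 lux, at log2 6.50, 6.07 and 5.93 against 7.45 and 7.04 at 50 lux, and not at 2500 lux, at 6.95, 7.42 and 7.52. The 5000 lux difference of -1.08 missed the threshold (SE 0.33, limma adjusted p = 0.0552) and passed under 7 of 28 other settings, among them array weights (0.00333) and the removal of Nxnl1-/- 50 lux replicate 1 (0.027) or 3 (0.0349) or 2500 lux replicate 1 (0.0473). Over all settings its limma adjusted p ran from 0.00333 to 0.356. Col6a1, a chain of the beaded microfibrils, was higher on average by log2 0.52, 0.37, 0.51 and 0.62 and overlapped in Nxnl1-/- retina. Its Nxnl1-/- responses passed without 50 lux replicate 3, the highest array of its group (limma adjusted p = 0.0417 and 0.0444). Col6a2, Col6a3, Col6a4 and Col6a5 were not measured. Col7a1, the anchoring fibril collagen, differed by between log2 -0.04 and 0.35. Col18a1, the source of endostatin, differed by between -0.20 and 0.49, and its Nxnl1-/- difference at 2500 lux passed with array weights (limma adjusted p = 0.0315 against 0.118), with the compared arrays alone (0.0299), with the mean of its probe sets (0.0388) and without wild-type 2500 lux replicate 3 (0.0213). Col10a1, Col15a1 and Col26a1 were not measured.

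Markers of other cells differed between light doses as well. Pigment epithelium markers summed to between 14371 and 18311 in wild type at 50 lux, 9003 and 12873 at 2500 lux and 6876 and 8362 at 5000 lux, and to between 10142 and 16136, 6339 and 10498, and 7780 and 8237 in Nxnl1-/- retina. Of 16 listed markers 15 were on the array and 11 measured, with Best1, Cdh3 and Mlana at the lowest value on every array. In wild type 3 fell at 2500 lux and 8 at 5000 lux, and in Nxnl1-/- retina 3 fell and 2 rose at 2500 lux and none passed at 5000 lux. Otx2 and Trpm1 of that list are also bipolar cell genes. Without the 2 arrays of highest sum the Col4a3 differences in the 4 responses were log2 -2.5 to -3.57 (limma adjusted p between 6.8e-05 and 0.00673), and Col4a4 did not pass in wild type (0.0535 and 0.189). With them left out 6, 7, 8 and 6 chains were called in the 4 responses in place of 11, 10, 10 and 7.

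Astrocyte markers, 5 genes with Gfap among them, summed to between 354 and 534 at 50 lux over both genotypes and to between 615 and 1239 on the bright-light arrays. Of the 5, 2, 2, 3 and 2 rose and 0, 1, 1 and 1 fell, S100b being the one that fell. Gfap, which is also on the list of Muller glia, rose in all 4 responses, by log2 2.86, 2.81, 1.85 and 1.99. Of the 13 Muller glia markers, all measured, 4, 4, 3 and 3 rose and 5, 4, 5 and 4 fell. Their summed intensity lay between 28748.5 and 34415.7 on the 16 arrays. Microglia and macrophage markers summed to between 298 and 312 in wild type at 50 lux and between 410 and 683 after bright light, and overlapped in Nxnl1-/- retina. Of 8 measured, 5, 3, 2 and 2 rose, and 1, Csf1r, fell in Nxnl1-/- retina at 2500 lux. Fibroblast markers summed to between 158 and 174 in wild type at 50 lux and between 203 and 297 after bright light, and to between 197 and 207, 255 and 287, and 177 and 263 in Nxnl1-/- retina. The chains Col1a1, Col1a2 and Col3a1 are on that list, so these sums are in part chain values. Of 4 fibroblast markers measured 1, 1, 2 and 0 rose, and Fbln1, counted in Nxnl1-/- retina at 2500 lux, met the filter only through that group. Endothelial markers summed to between 821 and 908 in wild type at 50 lux and between 1118 and 1685 after bright light, and overlapped in Nxnl1-/- retina, where the 50 lux arrays reached 1319. Of 13 endothelial markers 8 were measured, of which 1 rose in each response. Another 5, Pecam1 and Cdh5 among them, never passed log2 4, and Kdr, between log2 8.64 and 10.04, was the brightest. Of 8 amacrine cell markers measured 5 fell in Nxnl1-/- retina at 5000 lux and none passed in the other responses, and of 9 ganglion cell markers 0, 1, 1 and 4 fell. Of the 8 rod markers 5, 5, 8 and 5 fell. Beside the marker counts given here and for pigment epithelium, 8.93%, 7.56%, 8.87% and 4.6% of all genes tested were higher in the 4 responses. In the same order 5.13%, 5.27%, 13.5% and 7.81% of all genes were lower. The part of these cell types in the chain results was not tested. Without the 2 arrays richest in lens markers 10, 10, 8 and 6 chains were called. The wild-type counts then include Col8a2, not called with all arrays (limma adjusted p = 0.0171 at 2500 lux and 0.0196 at 5000 lux).

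**Figure D3:**
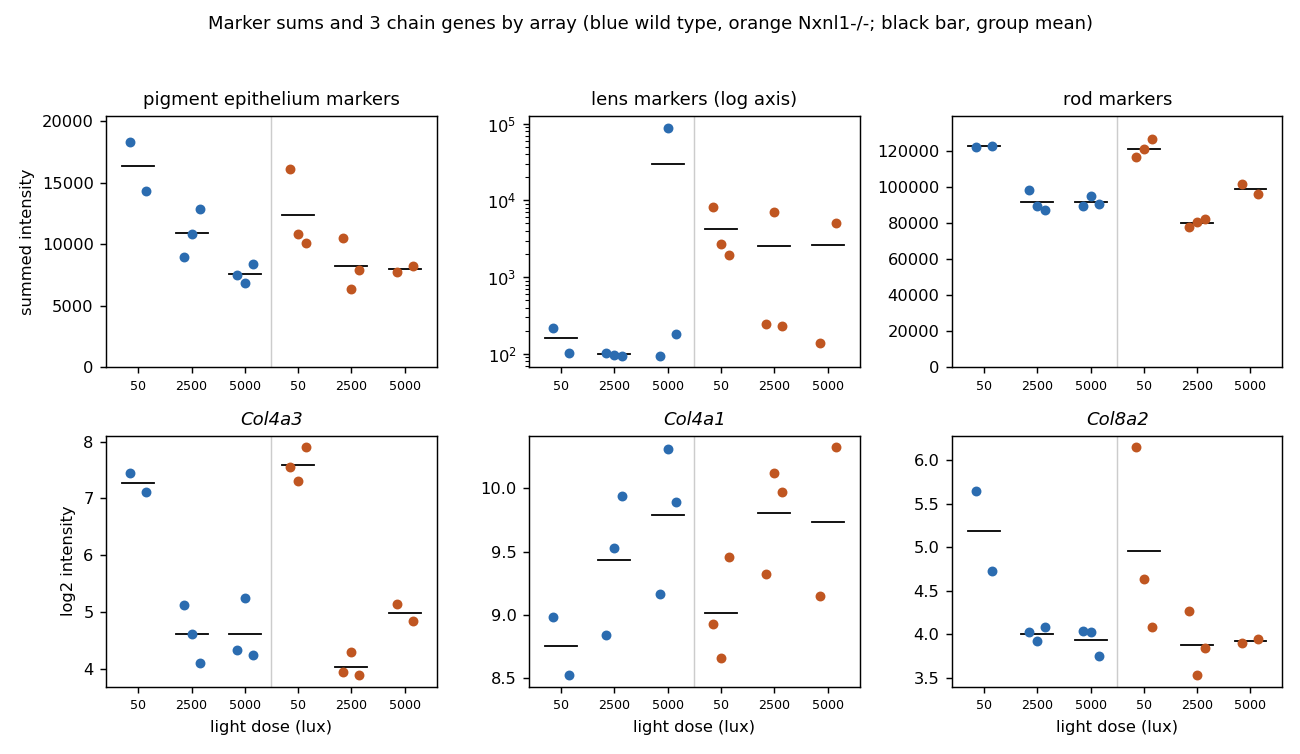
Upper row, summed intensity of pigment epithelium, lens (log axis) and rod markers on each array; lower row, log2 intensity of Col4a3, Col4a1 and Col8a2; light dose in lux, wild type in blue, Nxnl1-/- in orange, black bars at group means. Rod sums reach 116187 or more on the 50 lux arrays only, 1 wild-type 5000 lux array reaches a lens sum of 89007, and Col8a2 is highest on the arrays with the highest pigment epithelium sums.

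No chain differed between 5000 and 2500 lux in either genotype by limma, where 0% and 0.119% of all genes tested did. With array weights none was called either, at an adjusted p under 0.05. At an unadjusted p under 0.05 there were 1 chain in wild type and 8 in Nxnl1-/- retina (7.87% and 13.7% of all genes). In Nxnl1-/- retina 5 of the 8 stood higher at 5000 than at 2500 lux: Col4a3 by log2 0.95 (SE 0.32, limma adjusted p = 0.269), Col4a4 by 0.75 (0.38), Col9a1 by 0.61 (0.199), Col2a1 by 0.42 (0.367) and Col5a1 by 0.48 (0.391). Col8a1, Col18a1 and Col25a1 stood lower, by -0.80, -0.69 and -0.36. In wild type the 1 chain was Col8a1, lower at 5000 lux by -1.13 (SE 0.30, limma adjusted p = 0.573). Only 2 arrays made the Nxnl1-/- 5000 lux group.

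Genotype made no called difference to any chain. The comparison at 50 lux called 0.403% of all genes tested, at 2500 lux 0.137% and at 5000 lux 0.00916%, and the interaction of genotype with light called 0.0641% at 2500 lux and 0.0366% at 5000 lux, in limma with either direction counted. At an unadjusted p under 0.05 there were 3, 2 and 2 chains at the 3 doses, against 14.5%, 6.89% and 1.73% of all genes tested. In the interactions there were 0 and 4 chains, against 9.53% and 8.5% of all genes. With array weights, at an adjusted p under 0.05, limma called 1 chain at 50 lux and none elsewhere. That chain was Col25a1, higher in Nxnl1-/- retina at 50 lux by log2 0.70 (SE 0.15, limma adjusted p = 0.0775; 0.0232 with array weights). Its rise at 5000 lux was smaller in Nxnl1-/- retina by 0.89 (SE 0.21, interaction, limma adjusted p = 0.282). Col18a1 was higher in Nxnl1-/- retina at 2500 lux by 0.70 (SE 0.21, limma adjusted p = 0.518), with 5.59, 5.58 and 5.37 against 4.55, 4.49 and 5.40. Those groups overlapped through wild-type replicate 3, without which the difference was 0.99 and was called (limma adjusted p = 0.0149). On a second Col18a1 probe set the same groups did not overlap, and the difference of log2 0.78 did not pass (limma adjusted p = 0.368). For Col4a3 the genotypes' 50 lux arrays overlapped and no genotype comparison reached an unadjusted p under 0.05.

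Genes that fold, cut, bind and degrade these chains were followed in 5 lists. Of 20 measured genes of collagen folding, processing and crosslinking, 4 rose in wild type at 2500 lux and 6 at 5000 lux with none falling. Of the Nxnl1-/- responses, that at 2500 lux had 5 rise and 1 fall and that at 5000 lux had 2 rise. The median log2 change of the list was 0.20, 0.31, 0.00 and -0.01. Pcolce, an enhancer of procollagen C-proteinase, rose 12.8-fold in wild type at 2500 lux (log2 3.68, SE 0.31, limma adjusted p = 6.1e-06), from 6.63 and 5.69 to 9.56, 9.47 and 10.49. It rose 8.65-fold in Nxnl1-/- retina (log2 3.11, SE 0.28, limma adjusted p = 6.6e-06), from a mean of log2 7.04 to one of 10.15. The related Pcolce2 rose in wild type (log2 1.29, SE 0.20) and measured 0.47 without passing in Nxnl1-/- retina. Bmp1, the C-proteinase itself, rose in Nxnl1-/- retina (log2 2.28, SE 0.31) and measured 0.82 in wild type (limma adjusted p = 0.155). Crtap, of the prolyl 3-hydroxylase complex, and Ppib, its cyclophilin partner, rose in both (0.50 and 0.76, and 0.52 and 0.44). The collagen chaperone Serpinh1 rose in Nxnl1-/- retina (1.03, SE 0.18), with 0.51 in wild type (limma adjusted p = 0.137).

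Basement membrane partners were 10 measured genes, of which 2, 2, 3 and 3 rose and 0, 1, 1 and 1 fell in the order of comparisons above, with median log2 changes of 0.28, 0.46, 0.35 and -0.09. Agrn, a heparan sulfate proteoglycan of the inner limiting membrane, measured log2 8.59 and 8.54 in wild type at 50 lux and 8.96, 9.32 and 9.70 at 2500 lux, which just missed the test (0.76, SE 0.23, limma adjusted p = 0.0502). It rose in Nxnl1-/- retina from 8.53, 8.33 and 8.81 to 9.60, 9.77 and 9.89 (1.19, SE 0.21, limma adjusted p = 0.00125). Ntn4, a laminin-related netrin, and Frem1 rose in wild type (0.86 and 0.51) and did not pass in Nxnl1-/- retina (0.41 and 0.20). The peroxidase Pxdn, which crosslinks type 4 collagen, rose in Nxnl1-/- retina (0.77, against 0.37 in wild type), and Egflam, the photoreceptor synapse protein pikachurin, fell there (-0.68, SE 0.12, against -0.39 in wild type). Fbln1, counted among the 3 that rose at 2500 lux in Nxnl1-/- retina, met the filter only through that group, so 2 remain.

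Of 5 fibril partners measured, Fn1, fibronectin, rose at 2500 lux in both genotypes (log2 0.77 and 0.79, limma adjusted p = 0.00622 and 0.00158). The other gene called, Thbs1, passed log2 4 only on the 2 wild-type 50 lux arrays, so its lower calls in wild type are not a test of that difference. With it, the list gave 1 higher and 1 lower, 1 and 1, 1 and 0, and 0 and 0 in the 4 responses. Among 9 receptors measured 2, 2, 4 and 1 rose and none fell, with medians of 0.22, 0.48, 0.32 and 0.26. Cd44, a hyaluronan receptor that also binds collagen and laminin, measured log2 7.61 and 7.56 in wild type at 50 lux and 9.20, 9.34 and 10.13 at 2500 lux, a 3.92-fold rise (1.97, SE 0.25, limma adjusted p = 0.000175). It rose 5.38-fold in Nxnl1-/- retina (2.43, SE 0.22, limma adjusted p = 7.7e-06). The collagen receptor kinase Ddr1 rose in both (0.63 and 0.53), and the integrin chains Itga6 and Itgb1, which form a laminin receptor, rose in Nxnl1-/- retina (1.33 and 0.72) and did not pass in wild type (0.39 and 0.29).

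Of 15 matrix proteases and inhibitors measured, 7, 4, 7 and 2 rose and 1, 2, 2 and 2 fell. Timp1, an inhibitor of metalloproteinases, was log2 2.27 and 2.32 in wild type at 50 lux and 2.27 on all 3 Nxnl1-/- arrays. At 2500 lux it was 5.0, 4.90 and 6.55 in wild type and 7.0, 6.41 and 7.02 in Nxnl1-/- retina, so that it was at least 2.80-fold and at least 7.01-fold higher, counted from log2 4 (limma adjusted p = 0.000364 and 5.0e-06). Adamts1 and Adamts5, proteases of proteoglycans, rose in wild type (log2 1.67 and 0.78) and in Nxnl1-/- retina (1.28 and 0.77), as did the lysosomal protease Ctsl (0.82 and 0.78). Mmp14, a membrane-bound collagenase, rose in wild type (log2 1.44, SE 0.32, limma adjusted p = 0.00956) and in Nxnl1-/- retina (1.75, SE 0.28, adjusted p = 0.000737). Mmp3 passed log2 4 only on 2 Nxnl1-/- 2500 lux arrays, and without it 6 of the list rose there. Among the 59 measured genes of these 5 lists limma called 0 interactions of genotype with light at either dose. At an unadjusted p under 0.05 there were 8 and 9 at 2500 and 5000 lux, against 9.53% and 8.5% of all genes tested. The light responses of these lists stand beside all-gene shares of 8.93% higher and 5.13% lower in wild type at 2500 lux. In Nxnl1-/- retina at that dose the shares were 8.87% and 13.5%. At 5000 lux the shares were 7.56% higher and 5.27% lower in wild type and 4.6% and 7.81% in Nxnl1-/- retina.

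**Figure D4:**
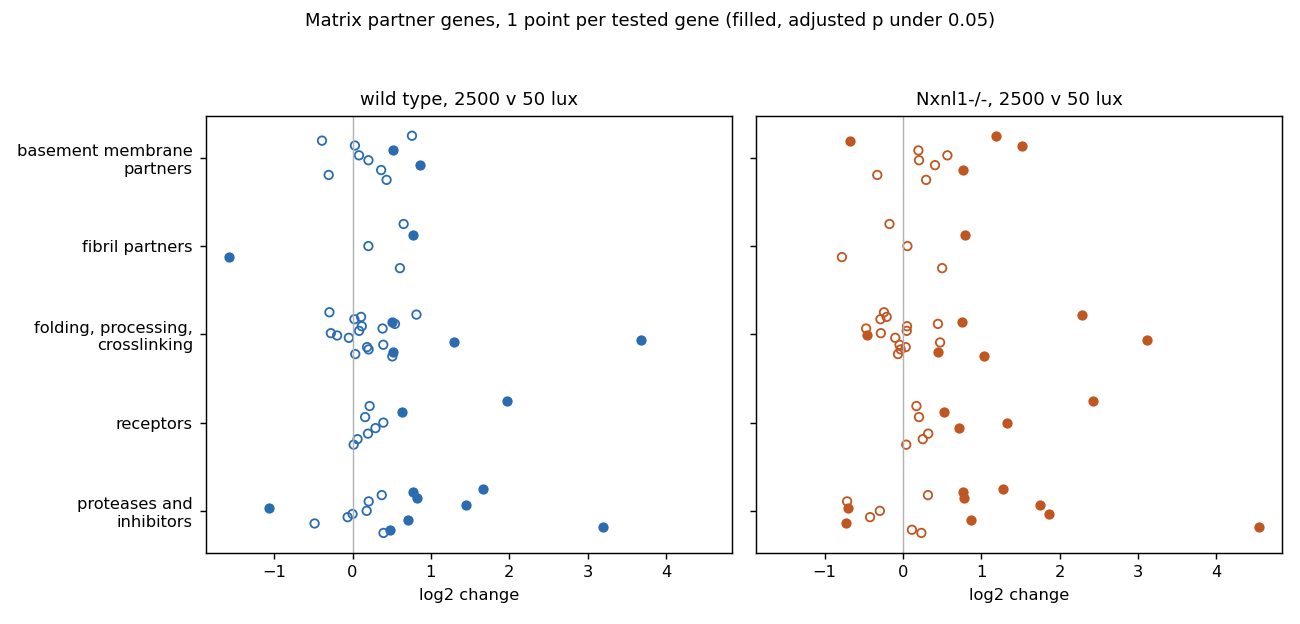
Log2 change at 2500 against 50 lux of each measured gene of the 5 partner lists, wild type on the left and Nxnl1-/- on the right, filled where the limma adjusted p was under 0.05. Pcolce reaches 3.68 and 3.11. Timp1 is drawn at its fitted differences (3.19 and 4.54) although its 50 lux values lie under log2 4, so its place gives no rank, and the points of Thbs1, Mmp3 and Fbln1 also rest on values under that limit.

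Group size limits all of these results: 3 of the 4 light responses rest on a group of 2 arrays, wild type at 50 lux or Nxnl1-/- at 5000 lux. When the arrays of the groups compared were fitted alone, 2 of the 7 Nxnl1-/- calls at 5000 lux were made, those of Col4a3 and Col11a1.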

How the data were processed

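RNA of 16 retina samples was measured on Affymetrix 3' expression arrays, 1 array per sample. The authors deposited intensity values on a linear scale, 1 per probe set and array. GCRMA is named per the submitters' processing notes, without a version. A common lowest intensity of 4.62, and values repeated exactly on several arrays of a probe set, hide small differences. Number of arrays, not depth, limits the precision.

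From the deposited intensity, log2 was taken. Of 45037 probe sets, 23320 had 2 or more arrays above log2 4, or 16 in intensity, and entered limma 3.58.1 under R 4.3.3: 6 group means over all 16 arrays, 11 contrasts, eBayes without trend, Benjamini-Hochberg over all probe sets tested, threshold 0.05. The script was checked on simulated data. In the annotation 34945 probe sets had 1 symbol, 932 several and 9160 none. A gene's brightest probe set of 1 symbol by its mean over the arrays stood for it.

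All members may be named. Partner genes named are at most the 4 of smallest p per list and genotype at 2500 lux. Members and lists were chosen with earlier results of these data known. Alternatives were quantile normalization, median centring, no filter or one at log2 5, values raised to log2 4, an intensity trend, array weights, the mean of a gene's probe sets, the compared arrays alone, the replicate block and leaving out each array. Leaving out the arrays highest in lens or pigment epithelium markers was added after seeing the data. Same-numbered arrays were treated as unpaired.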

Additional observations from a re-analysis of the deposited data

How the results depend on the processing

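Of 38 calls of a chain in a light response (37 without Lama1), 20 held under all 28 alternatives, and no named result reversed. The number of chains called in wild type at 2500 lux, 11, was 7 with no filter on dim probe sets, 6 without the 2 arrays of highest pigment epithelium sum, and 6 to 11 when 1 array was left out. The lowest came without wild-type 50 lux replicate 1, and 7 were called without replicate 2. In wild type at 5000 lux it was 6 to 12 (10 with all arrays), with 6 without either 50 lux array, and in Nxnl1-/- retina 8 to 11 at 2500 lux (10 with all) and 4 to 9 at 5000 lux (7 with all), the 4 without Nxnl1-/- 5000 lux replicate 2. With the compared arrays alone, which leaves fewer samples to estimate the spread, the last count was 2. Between genotypes at 50 lux 1 chain, Col25a1, was called with array weights and 1, the same, with the mean of a gene's probe sets, which tests fewer features. At 2500 lux 0 to 1 chains were called with 1 array left out, the 1 being Col18a1. Why the other counts differ was not tested. With the replicate block 11, 12, 11 and 8 chains were called in the 4 light responses, and 0 in the dose steps, genotype comparisons and interactions. The numbers were not taken to pair the arrays: where 3 pairs exist, the lowest correlation of their deviations was 0.00024, -0.012 and 0.045, and 1, 2 and 2 of 3 arrays correlated best with their own number. Where 2 pairs exist, the genotypes correlated by 0.35 and 0.46 at 50 lux and 0.69 and 0.47 at 5000 lux, and the light responses by -0.086 to 0.41. The median over all genes shifted by under 0.1 with quantile normalization or centring. Values near log2 4 and repeated values limit what can be seen for Lama1, Col1a2, Col12a1, Col16a1, Lamb2 and Lamc1.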

Other observations

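The 24 chains on the array that did not pass the filter stayed under log2 4 on all 16 arrays, and 5 of them (Col10a1, Col14a1, Col26a1, Lama3 and Lamb3) were at the lowest value on every one.

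Col20a1 had 3 measured probe sets. One of the dimmer ones fell in wild type at 2500 lux (log2 -0.89, limma adjusted p = 0.0474) and in Nxnl1-/- retina at 2500 lux (-0.76, adjusted p = 0.0415), and the other passed in no light response. Of 2 further Col4a4 probe sets, 1 passed wherever the brightest did (log2 -1.94, -1.52 and -1.90), and the other met the filter mainly through wild type at 50 lux and gives no test.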
